A study of Rattus norvegicus with 6 samples.

Results

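The proteasome genes examined here are the rat genes whose symbols are Psma, Psmb, Psmc, Psmd or Psme followed by a number. They were found in the deposited mRNA table through the RefSeq transcript of each row, by a rule that reads the symbol and no measured value. The rule found 40 genes, with 1 probe each, among the 19942 mRNA genes tested. They comprise 8 alpha and 7 constitutive beta subunits of the core, 3 inducible beta subunits of the immunoproteasome, 6 ATPases and 13 other genes of the cap, and 3 activators. Psmb11, Psmd11 and Psme2 were not analysed here.

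RNA came from cultured ventricular cardiomyocytes of newborn Sprague-Dawley rats aged 1 to 3 days, and each of 6 samples was hybridised to its own one-colour Agilent array. Control samples (n = 3) were untreated. Isoproterenol samples (n = 3) had received isoproterenol, which activates beta-adrenergic receptors, at 10 µM for 24 h. In both groups fibroblasts had been reduced by letting them attach to a flask first, and the cells were held in serum-free medium before exposure. The series presents the exposed cells as hypertrophic. The labels also speak of several passages, and the series text of transfected replicates, neither of which fits primary cells given a drug. The replicates are called biological, but no label ties a sample to a litter or a culture day. The p-values therefore measure only the spread between these samples, which may be technical.

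The proteasome is the main protease for ubiquitin-tagged proteins in the cytosol and nucleus. Its core is a barrel of stacked rings: alpha subunits form the gates, and beta subunits line the chamber and carry the protease sites. A regulatory cap binds and strips ubiquitin, and its ring of ATPases unfolds the substrate and threads it through the gate. Interferon-gamma induces the immunoproteasome subunits Psmb8, Psmb9 and Psmb10, which replace their constitutive partners in newly made cores. In heart muscle the proteasome clears damaged and short-lived proteins and takes part in sarcomere turnover.

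A level is given below as log2 signal minus the 75th percentile of all probes on that array, so 0 is a fairly bright probe. A change is the isoproterenol mean minus the control mean on that scale. A gene is said to have risen or fallen where limma's moderated test, with Benjamini-Hochberg adjustment over all 19942 genes, gave an adjusted p under 0.05. Levels are comparable between arrays for a gene but not between genes, since each gene has its own probe. In RNA from a whole culture, fewer cells of a type and less RNA per cell cannot be told apart.

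The arrays lay on 2 slides, told from scan time and array position in the file headers. Slide 1 held the 3 control samples and isoproterenol replicate 1, and slide 2 held isoproterenol replicates 2 and 3. The slides differed in brightness. The 75th percentile signal was 547 to 599 on slide 1 against 207 and 249 on slide 2, the median negative control spot 27 to 30 against 87 and 84, and 97.7% to 99.8% of mRNA probes were well above background against 61.3% and 70.9%. No array had a saturated spot. All 7 cardiomyocyte markers (Tnnt2, Tnni3, Actc1, Myh6, Myl2, Ryr2 and Nkx2-5) were well above background on every array. With all 6 arrays they had changes above 0 (median 0.39), and Myh6 rose by 1.23. The median was 0.09 within slide 1 and 0.03 after quantile normalization, described below. Within slide 1, Tnni3 (-0.30), Ryr2 (-0.52) and Nkx2-5 (-0.07) lay below 0 and the other markers above. The summed linear signal of the 7 markers, in units of the 75th percentile, was 1228 to 1491 in controls. After isoproterenol it was 1586 to 2670, higher on every exposed array. Of 7 fibroblast markers Lum, Postn and Tcf21 fell, and of 5 endothelial markers Kdr fell. Of 3 smooth muscle markers Acta2 and Tagln rose, and of 7 leukocyte markers Cd3e fell. Others of these lists went the other way without passing. Col1a1 and Col1a2 changed by 0.31 and 0.65, Cdh5 and Tek by 0.85 and 0.05, and C1qa and Cd68 by 0.78 and 0.16. Myh11 of smooth muscle changed by -0.27 (0.64 within slide 1). Among the markers that passed, Kdr and Cd3e were well above background on 1 of 3 exposed arrays and Tcf21 on 2. After normexp background correction (offset 50) the changes of Kdr, Cd3e and Tcf21 were -0.07, 0.11 and -0.22, none of which passed. Within slide 1 the same markers differed by -1.27, -1.13 and -0.81. There Lum, Postn, Acta2 and Tagln differed by -1.54, -0.93, 1.16 and 1.03. In linear units of the 75th percentile, the summed signal of the fibroblast markers was 119 to 127 in controls and 109 to 152 after isoproterenol. That of the smooth muscle markers was 81.6 to 147 against 215 to 495. For endothelial markers the sums were 9.56 to 10.96 against 9.78 to 11.5, and for leukocyte markers 23.5 to 33.7 against 32.4 to 49.7. The part of these cell types in the results below was not tested; values within slide 1, where only isoproterenol replicate 1 was exposed, stand beside the main results.

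With all 6 arrays, most genes of the core and the cap were brighter after isoproterenol, and 2 of the 3 activators were dimmer. Of the 40 genes, 10 rose and none fell, beside 10.2% of all genes tested that rose and 5.92% that fell (16.1% called in all). The 10 were Psma4 of the alpha ring, Psmb5 of the beta ring, the ATPases Psmc1, Psmc4 and Psmc5, and Psmd2, Psmd4, Psmd5, Psmd9 and Psmd12 of the other cap genes. The other 30 did not pass. The median change of the 40 was 0.70, from -0.38 to 1.67, beside a median of 0.07 for all genes, and 36 changes lay above 0. In 27 genes every isoproterenol array stood above every control array, beside 25.6% of all genes; none showed the opposite order, beside 15.8%.

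**Figure D1:**
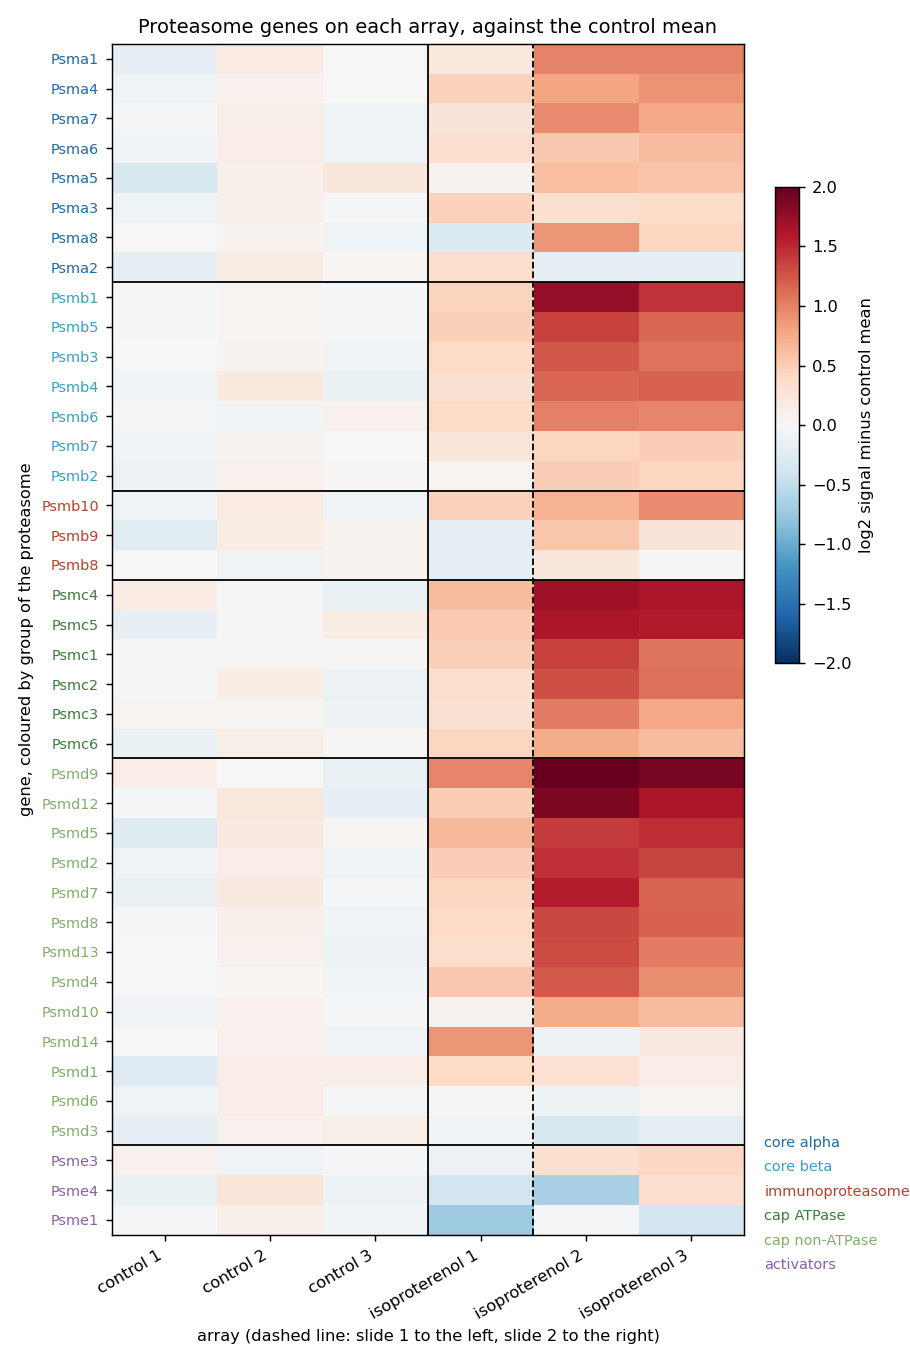
Log2 signal of each of the 40 proteasome genes (rows, ordered by change within each group) on each of the 6 arrays (columns), minus the gene's control mean; red is higher and blue lower. Most core and cap rows are paler on isoproterenol replicate 1 (slide 1) than on replicates 2 and 3 (slide 2). Psma8, Psmb8, Psmb9, Psmd3 and the 3 activators at the foot lie below their control means on replicate 1. On replicates 2 and 3 these genes show no shared shift.

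Isoproterenol replicate 1, which shared a slide with the controls, moved the same way but less. Within slide 1 the exposed group is 1 array, so p-values there take their spread from the 3 controls and assume that it holds for the exposed array. The median change of the 40 genes there was 0.37, with 33 above 0, beside a median of 0.11 for all genes. Isoproterenol replicates 2 and 3 alone gave a median of 0.85 against the slide 1 controls. With the slide as a block, only Psmd9 passed (adjusted p = 0.0459, limma), beside 7.29% of all genes.

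The proteasome probes are bright, and on these arrays most bright probes of any kind were higher after isoproterenol (79.2% of the top decile by level). Of the 40 genes, 28 lay in that top decile, taken by mean level over the 6 arrays among all genes tested. Its 1995 genes had a median change of 0.50, and 16.7% of them rose. The 28 proteasome genes in it had a median of 0.76, and 9 of them rose. Within slide 1 those medians were 0.18 for the decile and 0.41 for its proteasome genes. After quantile normalization, which gives every array the same distribution of values, they were 0.06 and 0.39. Under that normalization 3 of the 40 genes rose (Psmd9, Psmc4 and Psmd5), Psme1 fell, beside 13.6% of all genes called, and the median of the 40 was 0.38 beside -0.08 for all genes.

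**Figure D2:**
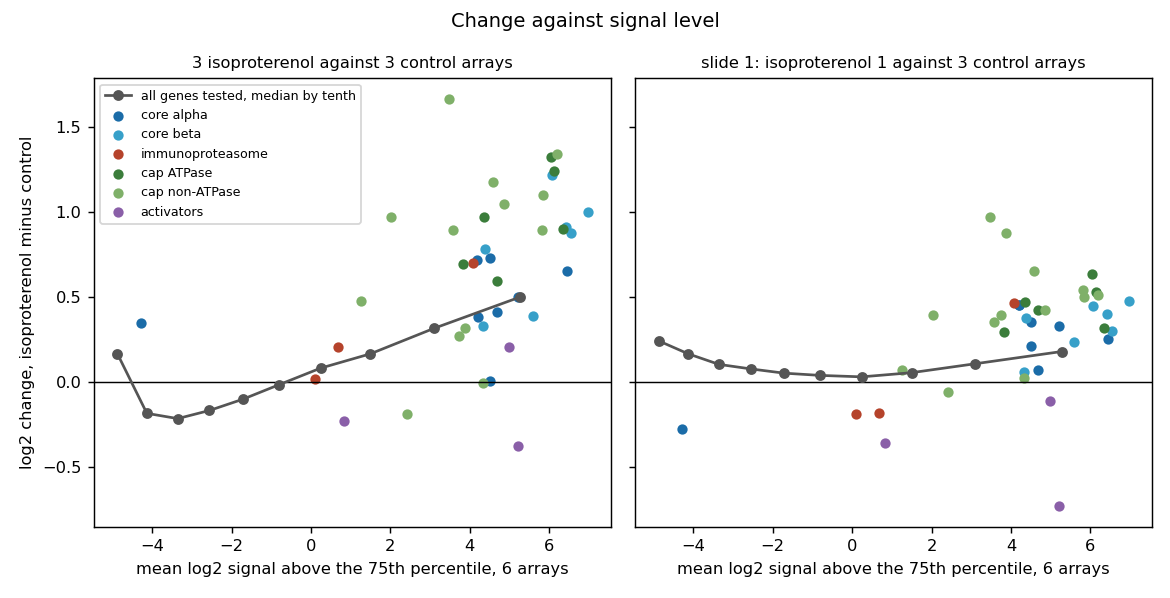
Change on isoproterenol (y axis, log2) against the mean log2 level over the 6 arrays (x axis) for the 40 proteasome genes, with all arrays (left) and within slide 1 (right); the grey line joins the medians of all genes tested by decile of level. At the bright end the line reaches 0.50 on the left and 0.18 on the right, and 25 (left) and 29 (right) of the 34 core and cap genes lie above the median of their own decile.

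The 8 alpha subunits, which form the outer rings and gate of the core, had a median change of 0.46 (0.29 within slide 1). Psma4 (NM_017281) stood at 3.74, 3.91 and 3.84 in control replicates 1, 2 and 3 and at 4.29, 4.63 and 4.73 after isoproterenol. Every isoproterenol array was above every control array, by 0.72 ± 0.18 (SE, 1.64-fold, adjusted p = 0.0437), and the slide 1 difference was 0.45. Psma1 had the largest change of the ring, from 3.99, 4.31 and 4.14 to 4.36, 5.14 and 5.14. Its first isoproterenol array was barely above the highest control, and the change of 0.73 ± 0.26 (SE) missed the threshold (adjusted p = 0.0937). Psma3, Psma6 and Psma7 also had separate groups, with changes of 0.38, 0.50 and 0.65 that did not pass. At the other end, Psma2 read 4.33, 4.65 and 4.55 in controls and 4.86, 4.35 and 4.34 after isoproterenol. The slide 1 array was its highest and the slide 2 arrays lay inside the control range, so the mean change was 0.01, and its sign turned to -0.34 under quantile normalization. Psma5 changed by 0.41 with overlapping groups. Psma8, a subunit known from testis, was near the floor of the arrays, well above background on all 3 control arrays but on 1 of 3 isoproterenol arrays, and its change of 0.35 was -0.27 within slide 1.

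The constitutive beta ring had a median change of 0.88 (0.38 within slide 1), and in 6 of its 7 genes the groups did not overlap. Psmb5 (NM_001105727), the site that cuts after hydrophobic residues and the main target of bortezomib, read 6.45, 6.53 and 6.43 in controls and 6.95, 7.84 and 7.62 after isoproterenol. The control spread was narrow (SD 0.05) and all exposed arrays stood clear of it. The change was 1.00 ± 0.25 (SE, 2.00-fold, adjusted p = 0.0421), and 0.48 within slide 1. The caspase-like subunit Psmb6 went from 3.96, 3.94 and 4.08 to 4.37, 5.0 and 4.97, a change of 0.79 with an adjusted p of 0.0527. The trypsin-like subunit Psmb7 went from 5.34, 5.47 and 5.39 to 5.64, 5.83 and 5.89. Its groups were apart, but the change was 0.39 (adjusted p = 0.139) and fell to -0.02 under quantile normalization. Among the subunits with no protease site, Psmb1 had the largest change, from 5.42, 5.51 and 5.44 to 5.90, 7.21 and 6.91. That is 1.22 ± 0.34 (SE), yet slide 2 gave 1.60 and slide 1 gave 0.45, and the adjusted p was 0.0523. Psmb3 and Psmb4 changed by 0.91 (adjusted p = 0.0513) and 0.88 (adjusted p = 0.0715). Psmb2, with 4.05, 4.26 and 4.19 against 4.23, 4.66 and 4.6, was the lowest at 0.33, and its groups overlapped. On either side of the threshold, Psmd12 was the last gene inside at 0.0490 and Psmb3 the first outside at 0.0513.

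None of the 3 immunoproteasome subunits passed, and only for Psmb10 were the groups apart. Psmb8, the inducible partner of Psmb5, read 0.10, 0.02 and 0.15 in controls and -0.10, 0.31 and 0.11 after isoproterenol. The groups overlapped and the change was 0.02 with a 95% confidence interval from -0.40 to 0.44. Psmb9, the partner of Psmb6, read 0.35, 0.74 and 0.66 against 0.40, 1.13 and 0.84, again overlapping, with a change of 0.21 (adjusted p = 0.553) that was -0.18 within slide 1. Psmb10, the partner of Psmb7, read 3.66, 3.90 and 3.65 in controls and 4.20, 4.43 and 4.68 after isoproterenol. All 3 exposed arrays were above all controls, by 0.70 ± 0.19 (SE, 1.63-fold), 0.46 within slide 1, and the adjusted p was 0.0523.

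Each inducible subunit was also set against its constitutive partner within each array, where scaling an array by a single factor cancels. A shift that varies with brightness does not cancel, and Psmb8 and Psmb9 had much dimmer probes than their partners. All genes in decile 7 by level, which held Psmb8 and Psmb9, had a median change of 0.08, against 0.50 in the top decile. Within slide 1 these medians were 0.03 and 0.18. The part of such a shift in the pair differences was not tested. The difference Psmb8 minus Psmb5 was -6.36, -6.51 and -6.28 in controls and -7.04, -7.52 and -7.51 after isoproterenol, lower on every exposed array by 0.98 on average (0.66 lower within slide 1). Psmb9 minus Psmb6 was -3.61, -3.21 and -3.42 against -3.97, -3.87 and -4.13, also lower on every exposed array, by 0.58 on average (0.56 lower within slide 1). Psmb10 minus Psmb7 went the other way, from -1.68, -1.57 and -1.74 to -1.44, -1.40 and -1.21, higher on every exposed array by 0.32 on average and by 0.23 within slide 1. None of the 3 pairs overlapped between groups. Quantile normalization, which does not cancel, gave smaller differences of -0.50 for Psmb8 minus Psmb5 and -0.29 for Psmb9 minus Psmb6, and 0.41 for Psmb10 minus Psmb7; the second pair then overlapped (exact permutation p = 0.2). An exact two-sided permutation test of 3 against 3 arrays gave p = 0.1 for each pair, the smallest that this test can give with so few arrays, and 0.1 after adjustment over the 3 pairs, so the test could not make a call. Each pair kept its sign in every alternative processing and with every replicate left out. Single-factor scalings could not change these differences, and without overlap, leaving out arrays could not turn a sign. Only quantile normalization, the deposited table and normexp could have done so.

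**Figure D3:**
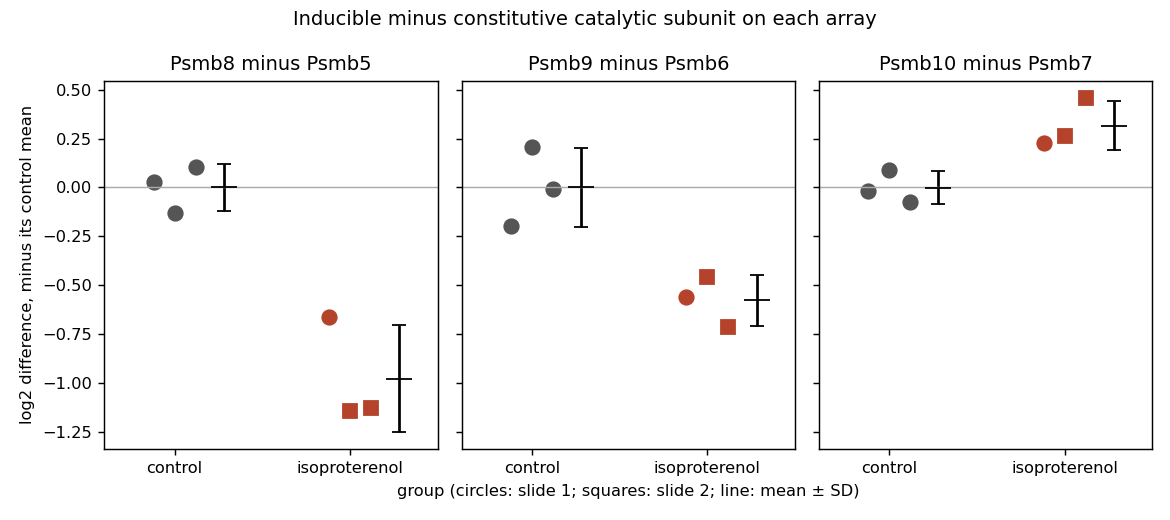
Log2 signal of each inducible subunit minus that of its constitutive partner on each array (y axis, shown relative to the control mean of the pair) for the 3 control and 3 isoproterenol arrays; circles are slide 1, squares slide 2, and bars the mean ± SD. Psmb8 minus Psmb5 and Psmb9 minus Psmb6 are lower on all exposed arrays, by 0.98 and 0.58 on average, and Psmb10 minus Psmb7 is higher by 0.32.

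All 6 ATPases of the cap, which unfold the substrate, had separate groups with isoproterenol above, and their median change was 0.94 (0.45 within slide 1). Psmc4 (NM_057122) read 5.55, 5.34 and 5.25 in controls and 6.02, 7.08 and 7.02 after isoproterenol. It rose by 1.33 ± 0.31 (SE, 2.51-fold, adjusted p = 0.0329), with 0.64 on slide 1 and 1.67 on slide 2. Psmc5 (NM_031149) went from 5.34, 5.53 and 5.65 to 6.04, 7.12 and 7.09, a rise of 1.24 ± 0.32 (SE, adjusted p = 0.0423). Psmc1 (NM_057123) went from 3.82, 3.89 and 3.88 to 4.33, 5.24 and 4.93, a rise of 0.97 ± 0.25 (SE, adjusted p = 0.0439). In each of these the exposed array on slide 1 stood between the controls and the slide 2 arrays. Psmc2 and Psmc3 changed by 0.90 and 0.70 without passing. Psmc6 was the lowest of the ring, from 4.25, 4.50 and 4.41 to 4.81, 5.14 and 5.0. Its change was 0.59 ± 0.17 (SE, adjusted p = 0.0605), and 0.42 within slide 1.

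The 13 other cap genes were the most varied, from -0.19 to 1.67, with a median of 0.90 (0.42 within slide 1). The largest change of all 40 genes was in Psmd9 (NM_130430), an assembly chaperone that joins cap ATPases and leaves before the cap is finished. Psmd9 read 2.79, 2.66 and 2.49 in controls and 3.62, 4.78 and 4.54 after isoproterenol. The lowest exposed array was clear of the highest control, and Psmd9 rose by 1.67 ± 0.31 (SE, 3.18-fold, adjusted p = 0.0178). Within slide 1 its difference was 0.97 (adjusted p = 0.0554). Psmd5 (NM_001106569), another chaperone of the ATPase ring, went from 3.74, 4.17 and 4.05 to 4.64, 5.39 and 5.47, a rise of 1.18 ± 0.27 (SE, adjusted p = 0.0304). Psmd10, or gankyrin, also a chaperone of that ring, read 0.95, 1.12 and 1.01 against 1.1, 1.77 and 1.64. Its groups overlapped and its change of 0.48 did not pass.

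Of the structural cap subunits, Psmd12 (NM_001005875) of the lid went from 5.48, 5.73 and 5.36 to 6.04, 7.39 and 7.16. It rose by 1.34 ± 0.36 (SE, adjusted p = 0.0490), and slide 1 gave 0.51. Psmd2 (NM_001031639), a large scaffold of the base that docks shuttle factors, went from 5.22, 5.42 and 5.23 to 5.79, 6.75 and 6.64, a rise of 1.1 ± 0.28 (SE, adjusted p = 0.0417). Psmd4 (NM_031331), a ubiquitin receptor, went from 5.39, 5.42 and 5.32 to 5.91, 6.59 and 6.30, a rise of 0.90 ± 0.21 (SE, adjusted p = 0.0348) with 0.54 within slide 1. In these 3 genes too, every exposed array was above every control. The lid subunits Psmd7, Psmd8 and Psmd13 changed by 1.05, 0.97 and 0.90, with separate groups and adjusted p-values of 0.0587, 0.0536 and 0.0615.

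Other cap genes had smaller changes with all 6 arrays. Psmd3, a lid subunit, read 2.32, 2.59 and 2.63 in controls and 2.45, 2.19 and 2.34 after isoproterenol, overlapping, with a change of -0.19 (adjusted p = 0.469). Psmd6, also of the lid, changed by -0.01. Psmd1 of the base changed by 0.27 (0.39 within slide 1), with every exposed array above every control, and did not pass. Psmd14, the cap's deubiquitinase and the catalytic partner of Psmd7, is described because its slides disagreed, a choice made after its values were seen. It read 3.71, 3.81 and 3.65 in controls, 4.61 on the exposed array of slide 1, and 3.62 and 3.91 on slide 2. Its slide 1 difference was 0.88 (adjusted p = 0.0518), and with all 6 arrays the change was 0.32 (adjusted p = 0.420).

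**Figure D4:**
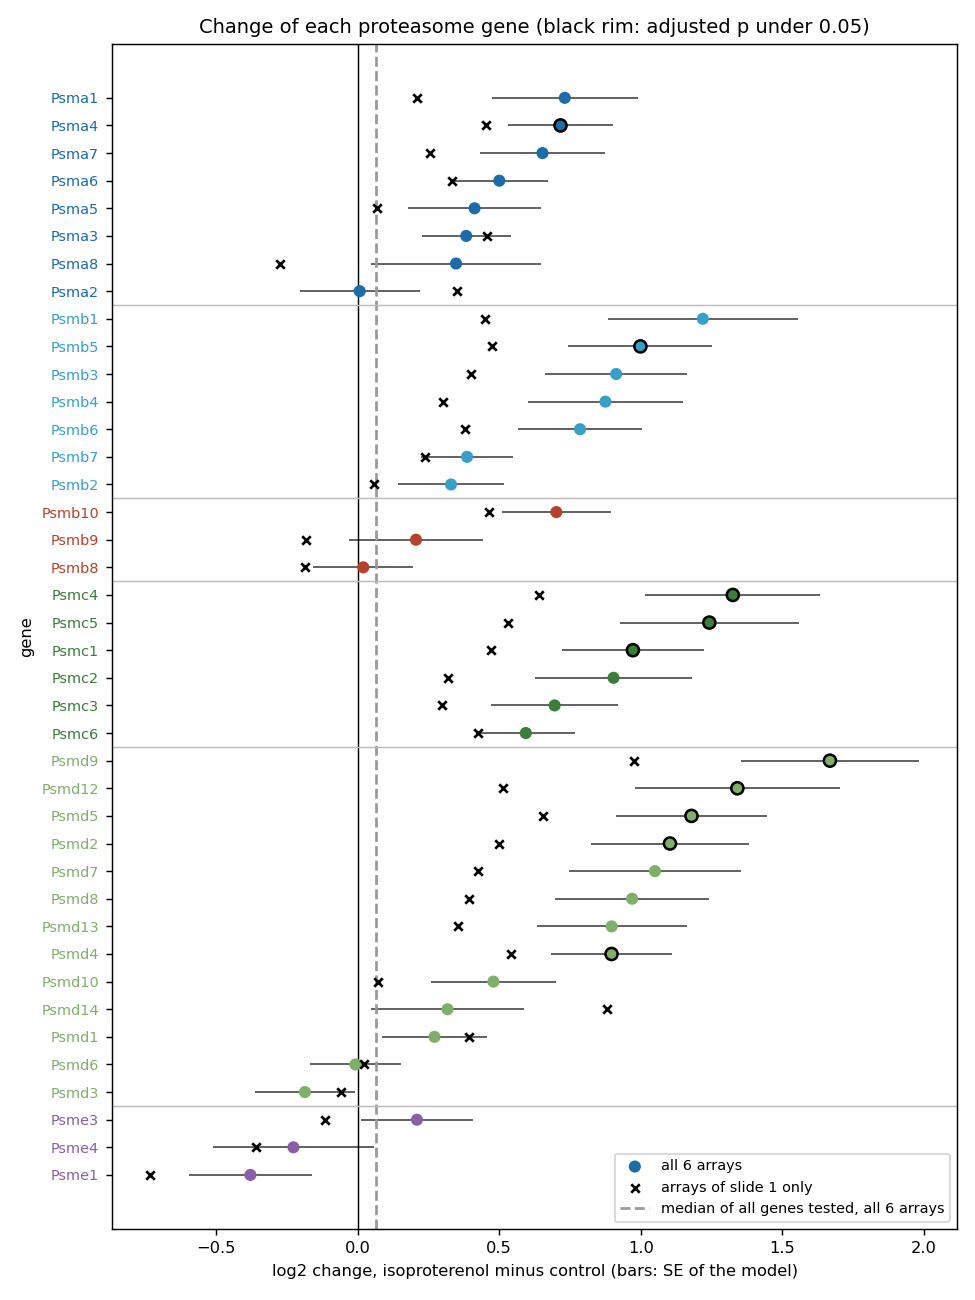
Change of each of the 40 proteasome genes (x axis, log2, isoproterenol minus control) with all 6 arrays (circles, bars are the SE of the limma fit, black rim for an adjusted p under 0.05) and within slide 1 (crosses). The 10 rimmed genes lie between 0.72 and 1.67, their crosses are nearer to 0, and the activators lie between -0.38 and 0.21.

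The 3 activators, which open the core without the ATPase cap, had a median change of -0.23 (-0.36 within slide 1), and none passed. Psme1, a subunit of the interferon-inducible ring that aids peptide production, read 5.37, 5.50 and 5.33 in controls and 4.67, 5.36 and 5.04 after isoproterenol. Replicates 1 and 3 were below all controls and replicate 2 was within their range. Its change was -0.38 ± 0.22 (SE, adjusted p = 0.244), and under quantile normalization Psme1 fell by 0.79 (adjusted p = 0.0272). Psme3, the nuclear activator, read 4.97, 4.81 and 4.85 against 4.76, 5.20 and 5.30, a change of 0.21 that was -0.11 within slide 1. Psme4, the large single-chain activator, read 0.81, 1.18 and 0.84 against 0.58, 0.29 and 1.28, the exposed arrays lying on both sides of the controls, with a change of -0.23 (adjusted p = 0.586).

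Promoters were read from RefSeq's table for build GRCr8, 250 bases before to 50 after each start site, and 36 of the 40 genes had one. The letters TGACNNNGC, the core of the antioxidant response element that Nfe2l1 and Nfe2l2 bind, were looked for on both strands. They occurred in 8 of the 36 (22.2%) and in 12.1% of all 33469 promoters in the table. The 8 were Psma3, Psmb2, Psmb5, Psmb6, Psmd1, Psmd3, Psmd9 and Psme4. Of these 8, Psmb5 and Psmd9 rose, beside 10 of all 40 genes. The 150 bases before the start are shown for Psmd9, the gene with the largest change, and for Psmb5 and Psmb6. The latter are constitutive protease sites set against inducible partners above. Psmb7, also such a site, held no match in its promoter and is not shown. Capitals mark TGACNNNGC or its reverse complement.

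Psmd9: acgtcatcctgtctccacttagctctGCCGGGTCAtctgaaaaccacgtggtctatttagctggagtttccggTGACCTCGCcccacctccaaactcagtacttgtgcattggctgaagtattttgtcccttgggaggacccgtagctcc

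Psmb5: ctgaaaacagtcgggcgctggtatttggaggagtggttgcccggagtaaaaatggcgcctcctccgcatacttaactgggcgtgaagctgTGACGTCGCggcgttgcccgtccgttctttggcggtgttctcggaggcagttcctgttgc

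Psmb6: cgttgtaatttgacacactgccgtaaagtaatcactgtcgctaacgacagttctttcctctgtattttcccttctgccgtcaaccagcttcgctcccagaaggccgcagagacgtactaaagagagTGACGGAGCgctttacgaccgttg

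The Psmd9 stretch (chr12:39018265-39018414, minus strand) holds 2 matches, the Psmb5 stretch (chr15:32047380-32047529, minus strand) 1 and the Psmb6 stretch (chr10:55737738-55737887, plus strand) 1. The letters CCAAT, bound by NF-Y, occurred in 19 of the 36 promoters (52.8%) and in 37.5% of all. A GAAA run repeated after any 2 bases, the form that interferon regulatory factors bind, occurred in 5 of the 36 (Psma4, Psmb3, Psmb8, Psmb10 and Psmd7; 13.9%) and in 3.92% of all. The letters TTCNNNGAA, bound by Stat factors, occurred in 4 of the 36 (11.1%) and in 8.87% of all. All were searched on both strands, and a match is a run of letters and no more. Psmb10, the immunoproteasome gene whose exposed arrays all stood above the controls, is shown with its 250 bases before the start (chr19:50743293-50743542, minus strand), and capitals mark 2 such repeats.

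Psmb10: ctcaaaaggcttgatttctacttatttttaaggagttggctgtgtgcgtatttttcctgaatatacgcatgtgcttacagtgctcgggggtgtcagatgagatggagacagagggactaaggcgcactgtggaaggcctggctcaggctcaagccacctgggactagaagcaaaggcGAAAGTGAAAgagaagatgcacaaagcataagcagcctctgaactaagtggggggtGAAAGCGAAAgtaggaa

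Of 46 other genes of proteasome assembly, ubiquitin supply and delivery, 35 were tested. Of those, 6 rose and 2 fell, 27 missed the threshold, beside 10.2% of all genes that rose and 5.92% that fell, and the median was 0.28 (0.19 within slide 1). Pomp, the chaperone that matures the core, read 4.47, 4.52 and 4.48 in controls and 5.02, 5.83 and 5.46 after isoproterenol, a rise of 0.95 (adjusted p = 0.0382). Usp14, a deubiquitinase that docks on the cap, rose by 1.11 (adjusted p = 0.0313), and Rad23b, a shuttle factor that carries ubiquitin-tagged proteins to the cap, by 0.70 (adjusted p = 0.0278). Nploc4, a cofactor of the Vcp segregase, rose by 1.25 (adjusted p = 0.0456). Rps27a, a source of ubiquitin fused to a ribosomal protein, rose by 0.99 (adjusted p = 0.0150), and Ube2n, a ubiquitin-conjugating enzyme, by 0.88 (adjusted p = 0.0269). None of these 6 passed within slide 1. There Rad23b, Rps27a and Ube2n differed by 0.67, 0.81 and 0.68, and Nploc4, Usp14 and Pomp by 0.53, 0.59 and 0.53.

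The 2 that fell were the muscle ubiquitin ligases known from atrophy. Fbxo32, or atrogin-1, read -1.13, -0.48 and -0.76 in controls and -2.68, -2.78 and -3.05 after isoproterenol, a log2 change of -2.05 (adjusted p = 0.0048). It was well above background on 2 of the 3 exposed arrays, and after normexp the change was -1.0 (adjusted p = 0.0282), so its size is uncertain. Trim63, or MuRF1, read 1.31, 1.90 and 1.66 against 0.01, 0.33 and 0.25, a log2 change of -1.43 (adjusted p = 0.0097). Within slide 1, with its single exposed array, they differed by -1.89 and -1.61 (adjusted p = 0.0453 and 0.0486, limma). Nfe2l2, a regulator of proteasome genes under oxidative stress, changed by -0.03, and Psmf1, an inhibitor of the core, by 0.11; neither passed. Nfe2l1, the main regulator of proteasome genes when the proteasome is impaired, was not analysed here.

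Of 18 genes of antigen processing and its interferon control, 16 were tested, none rose and 1 fell (10.2% and 5.92% of all genes did), with a median of -0.09 (-0.12 within slide 1). Irf1, an interferon regulatory factor known to drive the immunoproteasome genes, read -2.70, -2.40 and -2.49 in controls and -3.36, -4.59 and -4.22 after isoproterenol. It fell by 1.53 (adjusted p = 0.0247, limma), and its slide 1 difference was -0.83. However, only 1 of the 3 exposed arrays was well above background, and after normexp background correction the change was 0.0065. Tap1, a peptide transporter encoded beside Psmb9, went from -0.05, -0.26 and 0.12 to -0.48, -0.71 and -0.65, a change of -0.55 (adjusted p = 0.0763). B2m, the light chain of class I molecules, changed by 0.16 (adjusted p = 0.559).

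**Figure D5:**
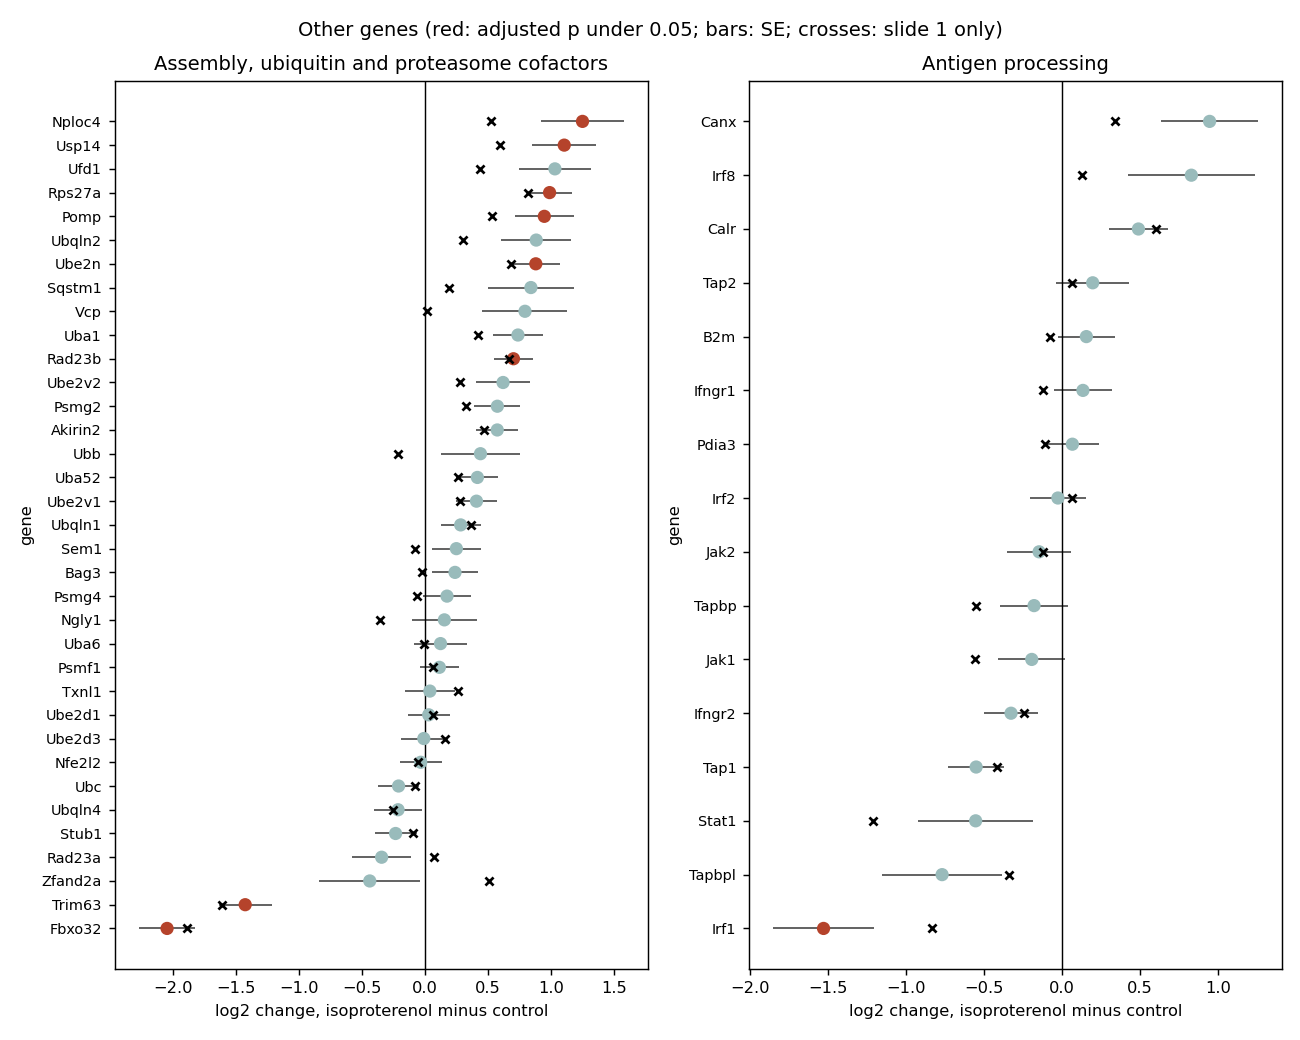
Change of each tested gene (x axis, log2, isoproterenol minus control) in the list of proteasome assembly, ubiquitin and cofactors (left, 35 genes) and of antigen processing (right, 16 genes); circles use all 6 arrays with the SE of the limma fit, red marks an adjusted p under 0.05, and crosses are within slide 1. Fbxo32 and Trim63 lie far to the left with both markers close together, at -2.05 and -1.43 with all arrays.

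The calls among the 40 genes changed with the arrays used. None of the 40 passed when a control array was left out, replicate 1 (7.23% of all genes called), 2 (2.48%) or 3 (1.85%), or when isoproterenol replicate 2 (6.42%) or 3 (4.17%) was. Without isoproterenol replicate 1, so with the exposed samples on slide 2 alone, 30 rose, but so did 29.4% of all genes, and 52.1% were called. The number also moved with the processing. With normexp background correction 16 rose and Psme1 fell, beside 10.7% of all genes that rose and 14.7% called. Scaling by the array median left 3 that rose, beside 1566 of all 19942 genes that rose (12.4% called in all). Scaling by the 75th percentile of probes detected on all arrays left 4, beside 1373 of all genes that rose (16.8% called in all). The deposited table gave 3 that rose and 1 that fell (14.6%). Among probes well above background on all 6 arrays 24 of 39 rose, beside 3081 of 12307 genes that rose (34.5% called in all). The 75th percentile over spots, with or without outlier spots (16.4% each), the mean of all probes of a gene (16.2%) and no filter on dim probes (16.1%) each gave 10. The 10 genes that rose kept a change above 0 in every alternative, the lowest being 0.38 for Psma4. Their groups did not overlap, so only another scaling, normalization or background correction could have turned a sign. RefSeq names 41 pseudogenes after 17 of the 40 genes, among them Psmc4 and Psmd12 of those that rose; which of these transcripts a probe also reads was not tested, so those values are uncertain to that extent.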

How the data were processed

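Agilent Feature Extraction 11.0.1.1 read the scans, per the file headers. The deposited scanner files hold linear Cy3 intensity values, background-subtracted within each array, for 43040 spots. The authors also deposited an mRNA table of log2 values, normalized between arrays, by a method not given in the sources used here. They lie close to quantile-normalized log2 probe averages: 95% of rows differed by 0.00061 or less on each slide 1 array, and by up to 0.467 and 0.242 on isoproterenol replicates 2 and 3, while no proteasome gene differed by more than 0.00228. Because the scanner files name probes by design number, rows were matched to probes by value on the 4 arrays of slide 1 (distance under 0.05 and under 0.25 of the next best). This matched 20639 of 20734 rows, and all 40 proteasome rows. RefSeq's GRCr8 gene table named 13956 of 14757 NM rows and none of 5977 Ensembl rows. The file headers give the probe build as rn4, so no probe coordinates are stated.

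Outlier spots were left out, spots of a probe were averaged, and log2 signal was scaled by the 75th percentile of all non-control probes. Genes well above background on at least 3 of 6 arrays were tested, each by its brightest probe, with limma 3.58.1 (R 4.3.3), two-sided, Benjamini-Hochberg over 19942 genes. The percentile was settled on probe averages after results had been seen; percentiles over spots, with or without outlier spots, gave the same 10 proteasome calls. Only the limma fit without a block was tested on simulated data, which held independent noise and no slide effect. The proteasome genes and the lists were chosen with earlier results of these data known. Every proteasome gene is named. Given by array are those that passed, Psmb5 to Psmb10, the activators and the largest and smallest change of each group, plus Psmd10 and Psmd14, added after their values were seen; of the other lists the text names the genes that passed plus Nfe2l2, Pomp, Psmf1, Tap1, B2m and Irf1. Alternatives were other scalings, background corrections, filters, blocks and leaving out each array. With 3 arrays a group, their number limits the precision.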

Additional observations from a re-analysis of the deposited data

How the results depend on the processing

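No proteasome gene that rose changed sign under any of 19 alternatives, but the number called was unstable. The groups of these genes did not overlap, so leaving out arrays or adding a block could not turn a sign. With a single probe per gene, the filters and the mean of all probes could not either. Only another scaling, normalization or background correction could have done so. The counts of proteasome genes higher and lower were 16 and 1 with normexp, 3 and 0 with median scaling, 4 and 0 with the 75th percentile of probes detected on all arrays, 3 and 1 with quantile normalization and with the deposited table, 24 and 0 among probes well above background on all 6 arrays, and 0 and 0 within slide 1; with the slide as a block 1 was higher. Leaving out each replicate gave 0 to 30 higher and 0 lower. Scaling moved the median of all genes from 0.07 to -0.17 (detected probes), -0.08 (quantile) and 0.35 (normexp), and the median excess of the proteasome genes over it ranged from 0.16 (normexp) to 0.77 (without isoproterenol replicate 1). Over all genes 63.2% of calls were higher, 41.0% with the detected probes (1975 lower) and 50.1% with the slide block; higher and lower calls were 2027 and 1180, 3081 higher with the stricter filter, 729 and 725 with the slide block, 499 and 544 within slide 1, and 206 to 5869 and 163 to 4527 over the replicates left out.

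Group medians moved to 0.22 (alpha), -0.034 (immunoproteasome) and -0.47 (activators) with the detected probes. With quantile normalization they were 0.14 (alpha), 0.43 (beta) and 0.54 (ATPases), and 0.14, 0.43 and 0.54 in the deposited table. Within slide 1, and with the slide block, they were 0.38 (beta), -0.18 (immunoproteasome), 0.45 (ATPases) and 0.42 (other cap). Over the replicates left out they ranged from 0.41 to 0.62 (alpha), 0.72 to 1.16 (beta), 0.04 to 0.40 (immunoproteasome), 0.74 to 1.21 (ATPases), 0.73 to 1.17 (other cap) and -0.39 to -0.01 (activators). Over the same left-out replicates the pair differences ranged from -1.14 to -0.90 (Psmb8 minus Psmb5), -0.68 to -0.48 (Psmb9 minus Psmb6) and 0.24 to 0.36 (Psmb10 minus Psmb7). In that order they were -0.50, -0.29 and 0.41 with quantile normalization, -0.49, -0.29 and 0.41 in the deposited table, -0.79, -0.53 and 0.26 with normexp, and -0.66, -0.56 and 0.23 within slide 1.

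In the pathway list 2 were higher with the detected probes and with quantile normalization, 3 with the deposited table, 12 higher and 1 lower with the stricter filter, and 0 higher within slide 1 or with the slide block; replicates left out gave 0 to 18 higher and 1 to 4 lower. Its median was 0.043 with the detected probes, 0.41 with the stricter filter and 0.22 to 0.41 over the replicates. In the antigen list 1 was higher with the stricter filter, 2 were lower with the detected probes and with the mean of all probes of a gene, and 0 were lower with normexp, within slide 1 or with the slide block; replicates left out gave 0 to 2 higher and 0 to 2 lower. Its median was -0.33 with the detected probes, -0.27 with quantile normalization and the deposited table, and -0.12 to -0.0039 over the replicates. Irf1 turned to 0.0065 with normexp. The cause of these shifts was not tested, except that fewer arrays or genes enter where a replicate, a slide or dim probes are left out.

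Same-numbered samples did not deviate together (r = 0.006, 0.052 and -0.023), so these values gave no sign of pairing by number. They cannot exclude pairing, since the exposed samples also differ from each other by slide. A fit with the replicate block called 2 proteasome genes higher (Psmd5 and Psmd9), 0 of the pathway list higher, 0 of the antigen list lower, and 818 genes higher and 634 lower in all (7.28%).

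Normexp on mean signals was not run because the files used hold median signals; median signals were used instead, chosen after seeing the data, as were both spot-based percentiles. Leaving the dim-probe filter out could change nothing in the counts, since the same 19942 genes were tested with and without it. Slide 2 limits dim genes: Psma8, Irf1, Fbxo32, Tcf21, Kdr and Cd3e were not well above background on every exposed array.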
